A study of Mus musculus with 16 samples.

Results

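The genes described here encode cytokines, chemokines and their receptors, together with the natural IL-1 receptor antagonist and Il4i1, an enzyme that enters by its symbol alone. They were chosen by symbol alone from the genes that carry at least 1 peak in the table of an m6A sequencing experiment: interleukins and their receptors, CC and CXC chemokines and chemokine receptors, colony stimulating factors and their receptors, TNF superfamily ligands and receptors, Lif, Osm and Osmr, and interferon receptors. Il1b, Il6, Il12a and Csf3 were left out. The rule found 67 gene identifiers with 66 symbols among 4943 genes, and these carried 119 of 7069 peaks. The study collected peritoneal macrophages (PMs) 3 days after injection of 3% thioglycolate, which draws macrophages into the peritoneal cavity, from wild-type (WT) and Adap-/- mice. Its methods describe sex-matched littermates of 6 to 8 weeks on a C57BL/6 background. PMs of each genotype were left unstimulated (mock) or were given LPS, a Toll-like receptor ligand from bacteria, at 1 ug/ml for 6 h. Each of the 4 groups (WT mock, WT LPS, Adap-/- mock, Adap-/- LPS) had 2 replicates, and each replicate gave an IP library, made from RNA fragments captured with an m6A antibody, and an input library without capture, 16 libraries in all. The labels do not say whether replicates came from separate animals, so p-values measure only the spread between samples.

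Cytokines and chemokines are secreted or shed ligands by which macrophages recruit and instruct other immune cells, and their receptors set which of these signals a macrophage can receive. In macrophages, bacterial ligands act through NF-kB and, by way of secreted type I interferon, through STAT factors, and many transcripts of this family are short lived and rise within hours. ADAP, encoded by Fyb1, is an adaptor protein of haematopoietic cells that links surface receptors to adhesion and signalling.

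The level of a gene is its input reads summed over all of its peaks and scaled to library size as CPM with TMM factors, so transcripts without a peak are not covered. Input libraries held between 2121313 and 4325961 reads on peaks, and IP libraries between 5728590 and 19030373. Peak spans can include introns, so no level was scaled by length and no levels are compared between genes. Of the members, 37 had 1 peak, and Tnfsf15 had the most with 10. For 64 members the input counts sufficed for a test. Tnfsf4, Tnfsf11 and Tnfrsf26 were not tested, with at most 15, 8 and 6 reads in any input library. Peaks are shared with another annotated gene in 18 members, and 16 have no peak of their own. Il27 and Tnfsf9 have shared peaks and 1 of their own. Tnfsf12 and Tnfsf13 share their only peak. Ifnar2 shares both of its peaks with ENSMUSG00000093701, a second identifier with the symbol Il10rb. Cx3cr1, Il11ra1, Il4i1, Il16, Il12rb2 and Cxcl16 have peaks that are also annotated to other genes, among them Wdr48 and Csrnp1, Rpp25l and Dctn3, Nup62 and Tbc1d17, Stard5, Serbp1 and Zmynd15, and the strand used in counting is not stated. The source of the reads of these members cannot be told apart from the other gene, and their values are uncertain.

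The targeted gene was read first, as a check of the labels. Fyb1 was at 244 and 257 CPM in WT mock, 347 and 377 in WT LPS, 46.8 and 36.8 in Adap-/- mock and 41.5 and 35.8 in Adap-/- LPS libraries. Every Adap-/- input library was below every WT input library, and the log2 fold change (± standard error, from edgeR) was -2.58 ± 0.13 (adjusted p = 8.51e-09) in mock and -3.22 ± 0.13 (adjusted p = 5.63e-10) in LPS PMs. On the CDS peak at chr15:6609828-6610128, the 4 Adap-/- input libraries had 1, 1, 0 and 0 reads and the WT input libraries between 502 and 618. The Adap-/- IP libraries had 0 reads there except mock replicate 1 with 59, where the WT IP libraries had 1174 to 3967. Osmr and Il7r lie 0.291 and 2.95 Mb from Fyb1 on chromosome 15.

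Macrophage markers matched the cell label. Of 8 macrophage markers, Itgam and Marco were absent from the table and 6 had a peak (Cd68, Lyz2, Msr1, Mertk, Fcgr1 and Adgre1). Their summed level was 9186 and 9794 CPM in WT mock, 8748 and 8704 in WT LPS, 8453 and 8679.7 in Adap-/- mock and 7452 and 7958 in Adap-/- LPS libraries. Of 4 monocyte markers 2 had a peak, and neither had enough input counts for a test. None of the markers of neutrophils, B cells, T and NK cells, eosinophils, mast cells, dendritic cells, fibroblasts and mesothelium or resident peritoneal macrophages had a peak. Since a gene enters the table only with a peak, this sets no bound on how many such cells were present. In bulk RNA, fewer cells of a type and less RNA per cell cannot be told apart.

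Some IP libraries stood apart from their labels. Among genes outside the family, 69 genes whose input rose with LPS by more than 5 on the log2 scale in both genotypes served as LPS-type transcripts, and 44 genes below -3 as mock-type transcripts, each read on unshared peaks. In mock input libraries, LPS-type transcripts had a median of 0.508% and 0.785% (WT) and 1.08% and 0.981% (Adap-/-) of their mean level in the LPS input libraries. In mock IP libraries the same transcripts were at 59% and 4.01% (WT replicates 1 and 2) and at 7.06% and 54.1% (Adap-/- replicates 1 and 2) of their mean level in the LPS IP libraries. WT mock IP replicate 1 and Adap-/- mock IP replicate 2 thus stood far above the other mock libraries. Mock-type transcripts were at 17.9% and 12.7% in the WT LPS IP libraries and at 7.34% and 5.4% in the Adap-/- LPS IP libraries, where the LPS input libraries had 4.62% to 6.31%. Because most members respond to LPS, their IP-to-input ratios in mock PMs depend on these libraries, whereas the input levels do not use them.

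**Figure D1:**
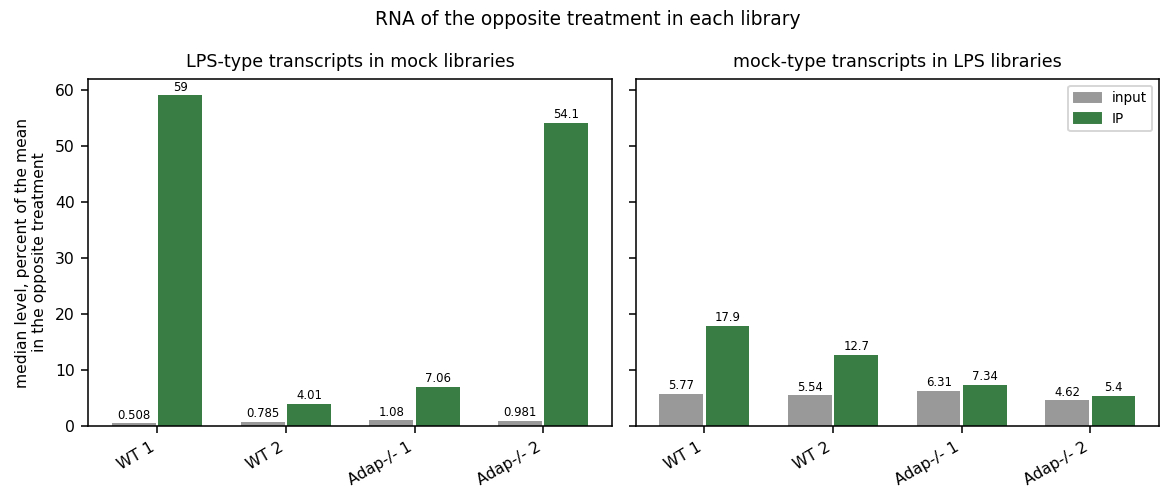
Median level of LPS-type transcripts in mock libraries (left) and of mock-type transcripts in LPS libraries (right), as a percent of their mean level in libraries of the same kind from the opposite treatment, for each replicate of WT and Adap-/- PMs. Grey bars are input and green bars IP libraries; WT mock IP replicate 1 (59%) and Adap-/- mock IP replicate 2 (54.1%) stand far above the rest.

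LPS raised all CC and all CXC chemokines of the family in both genotypes and moved the receptors in both directions. In WT PMs 38 of the 64 tested members rose, where 30.2% of all tested genes did, and 15 fell, where 28.9% of all genes did. In Adap-/- PMs 38 members rose, against 28.5% of all genes, and 15 fell, against 26.0%. Il12b, Lif and Tnfsf10 are among the members that rose. With at most 6 reads in any mock input library, they enter the test only by their LPS reads. They could hardly be called lower, so their calls add little to their read counts. A call is an adjusted p below 0.05 from edgeR's quasi-likelihood test over all 4742 genes. The median log2 fold change of the tested members was 1.39 in WT and 1.24 in Adap-/- PMs, and that of all genes -0.03 in each. In both genotypes 37 members rose and 14 fell, 4 were called in 1 genotype and 9 in neither. The share of all genes called in both genotypes is not given here, so these counts are not set against all genes. Upper-quartile scaling moved the median of all genes by -0.29 in WT and -0.28 in Adap-/- PMs. With it 35 members rose and 16 fell in WT PMs, where 23.3% and 41.7% of all genes did, and 36 rose and 18 fell in Adap-/- PMs, where 21.2% and 39.6% did. The directions of called members held under every scaling tried, except Csf2rb in WT PMs, 0.25 with TMM and -0.03 with upper-quartile factors, and Ifnar1 in Adap-/- PMs, 0.28 and -0.00. Values of members that were not called are given without a direction.

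**Figure D2:**
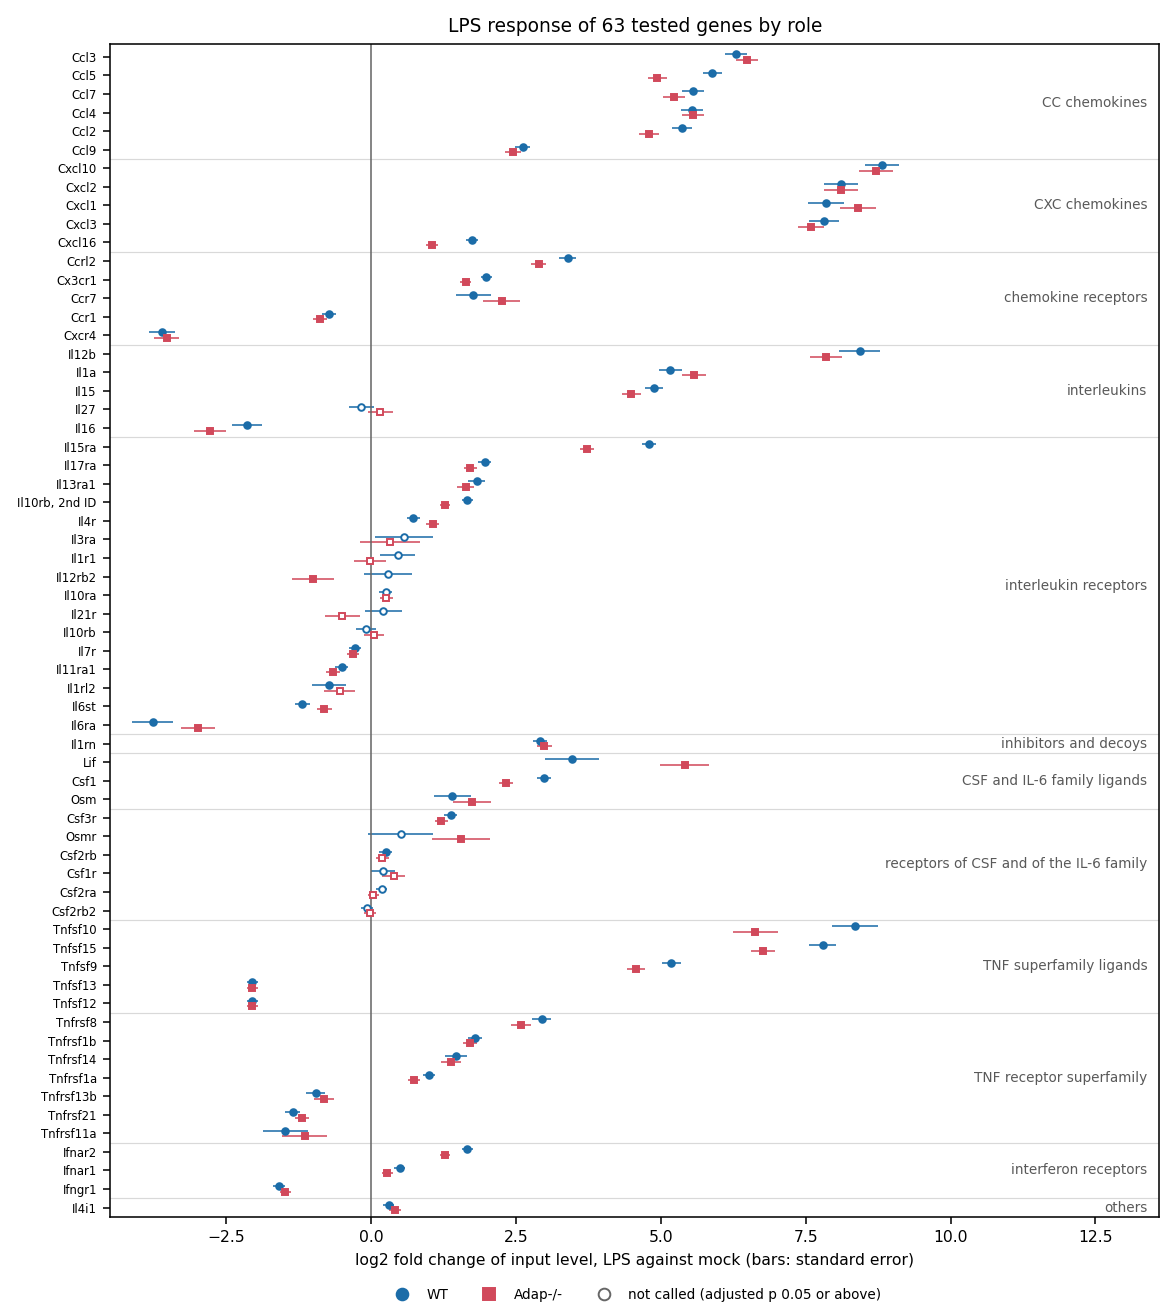
Log2 fold change of input level between LPS and mock PMs (x axis) for 63 tested genes, ordered by role (y axis), with WT as blue circles and Adap-/- as red squares; bars are standard errors, from 2 replicates per group, and open symbols were not called. All chemokines except Cxcl16 lie far to the right in both genotypes, while Cxcr4, Il6ra, Tnfsf12, Tnfsf13 and Ifngr1 lie to the left.

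All 6 CC chemokines rose in both genotypes. Ccl3, a ligand of CCR1, was at 176 and 191 CPM in WT mock, 15971 and 12564 in WT LPS, 207 and 225 in Adap-/- mock and 17209 and 21565 in Adap-/- LPS libraries. Its log2 fold change was 6.29 ± 0.19 (adjusted p = 8.22e-14) in WT and 6.48 ± 0.19 (adjusted p = 1.06e-13) in Adap-/- PMs. All LPS libraries lay far above all mock libraries, and WT LPS replicate 2 was the lowest of the LPS libraries. Ccl4, which attracts monocytes and T cells, was at 55 and 69.5 CPM in WT mock, 3211 and 2534 in WT LPS, 67.2 and 69.5 in Adap-/- mock and 2732 and 3687 in Adap-/- LPS libraries, and its log2 fold change was 5.53 in WT and 5.55 in Adap-/- PMs. Ccl5, an attractant of T cells, was at 250.1 and 189.7 CPM in WT mock, 13224 and 12824 in WT LPS, 399 and 479 in Adap-/- mock and 13206 and 13775 in Adap-/- LPS libraries. The LPS libraries of both genotypes lay close together, while both Adap-/- mock libraries were above both WT mock libraries. Ccl2 and Ccl7 attract monocytes through CCR2. Ccl2 was at 51.7 and 70.1 CPM in WT mock, 2512 and 2507 in WT LPS, 62 and 47 in Adap-/- mock and 1684 and 1359 in Adap-/- LPS libraries, and Ccl7 at 11.5 and 15.4 CPM in WT mock, 605 and 656 in WT LPS, 12.1 and 10.2 in Adap-/- mock and 486 and 341 in Adap-/- LPS libraries. For both, each WT LPS library was above each Adap-/- LPS library, and the mock libraries of the genotypes overlapped. The only Ccl2 peak is also annotated to an unnamed gene on the other strand. Ccl9, a CCR1 ligand, had the smallest change of the CC chemokines, 2.62 in WT and 2.45 in Adap-/- PMs.

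All 5 CXC chemokines rose as well. Cxcl1, Cxcl2 and Cxcl3 attract neutrophils through CXCR2. Cxcl1 was at 18.7 and 21.6 CPM in WT mock, 5818 and 3444 in WT LPS, 22.3 and 26.7 in Adap-/- mock and 6460.5 and 10316 in Adap-/- LPS libraries, a log2 fold change of 7.85 ± 0.31 (adjusted p = 2.17e-12) in WT and 8.41 ± 0.31 (adjusted p = 1.19e-12) in Adap-/- PMs. Cxcl2 was at 57.9 and 64.1 CPM in WT mock, 20312 and 13238 in WT LPS, 105 and 157 in Adap-/- mock and 30570.2 and 42362 in Adap-/- LPS libraries. Cxcl3 was at 7.94 and 7.01 CPM in WT mock, 1949.9 and 1426 in WT LPS, 27.1 and 38.3 in Adap-/- mock and 5397 and 7318 in Adap-/- LPS libraries. In all 3 genes the LPS libraries exceeded every mock library, WT LPS replicate 2 was below WT LPS replicate 1, and both Adap-/- LPS libraries were above both WT LPS libraries. Cxcl10, an interferon-induced ligand of CXCR3, had the highest fitted log2 fold change of all members in either genotype, 8.82 ± 0.29 (adjusted p = 2.91e-13) in WT and 8.71 ± 0.29 (adjusted p = 4.76e-13) in Adap-/- PMs. It was at 14.3 and 35.6 CPM in WT mock, 11508 and 10893 in WT LPS, 22.6 and 16.7 in Adap-/- mock and 8736 and 7708 in Adap-/- LPS libraries. Its peaks overlap Art3, annotated on the other strand. Cxcl16, the membrane-anchored ligand of CXCR6, rose least, by 1.74 in WT and 1.05 in Adap-/- PMs.

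Promoters of the members were searched for 2 motifs on both strands, in the RefSeq promoter table of build GRCm38.p6, which held 55 promoters of 46 members. A motif of the NF-kB type with 10 letters, 1 of them free, occurred in 5 of these promoters (9.09%) and in 117 of all 32851 promoters (0.356%). It was found in Cxcl1, Cxcl2, Cxcl3, Csf1 and Il16, which is 3 of the 4 CXC chemokines with a promoter and 0 of the 2 CC chemokines. A motif of the STAT type occurred in 6 (10.9%) and in 2306 (7.02%) of all, in Csf2rb2, Ifnar2, Il12rb2, Il7r, Tnfrsf1a and Tnfrsf1b. A match describes letters only. The 250 bases before the start are shown for the 3 CXCR2 ligands and for Csf1, read towards the gene, with the NF-kB type letters in capitals (Csf1 on the opposite strand). They lie at chr5:90890995-90891244, chr5:90903649-90903898 and chr5:90785851-90786100 on the plus strand and chr3:107760470-107760719 on the minus strand, and the capitals begin 71, 97, 73 and 154 bases before the start.
Cxcl1: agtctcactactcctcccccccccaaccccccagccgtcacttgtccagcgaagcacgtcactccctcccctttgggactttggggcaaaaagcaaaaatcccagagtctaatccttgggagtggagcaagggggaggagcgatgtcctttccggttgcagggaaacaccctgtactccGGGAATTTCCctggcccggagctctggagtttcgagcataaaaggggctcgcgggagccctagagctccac
Cxcl2: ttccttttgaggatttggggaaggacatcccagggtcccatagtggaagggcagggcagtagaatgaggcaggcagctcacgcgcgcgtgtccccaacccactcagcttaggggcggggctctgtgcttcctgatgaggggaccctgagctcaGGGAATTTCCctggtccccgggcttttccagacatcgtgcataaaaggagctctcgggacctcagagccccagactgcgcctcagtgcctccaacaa
Cxcl3: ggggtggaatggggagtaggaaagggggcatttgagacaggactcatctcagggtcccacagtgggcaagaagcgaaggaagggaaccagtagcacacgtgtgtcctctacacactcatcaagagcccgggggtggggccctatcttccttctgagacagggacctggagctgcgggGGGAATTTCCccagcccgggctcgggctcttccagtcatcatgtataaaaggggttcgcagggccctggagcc
Csf1: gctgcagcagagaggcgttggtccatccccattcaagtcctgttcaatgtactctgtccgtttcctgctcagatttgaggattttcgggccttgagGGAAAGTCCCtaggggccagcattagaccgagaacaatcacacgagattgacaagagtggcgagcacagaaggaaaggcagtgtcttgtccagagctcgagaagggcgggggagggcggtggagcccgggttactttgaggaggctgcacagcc

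**Figure D3:**
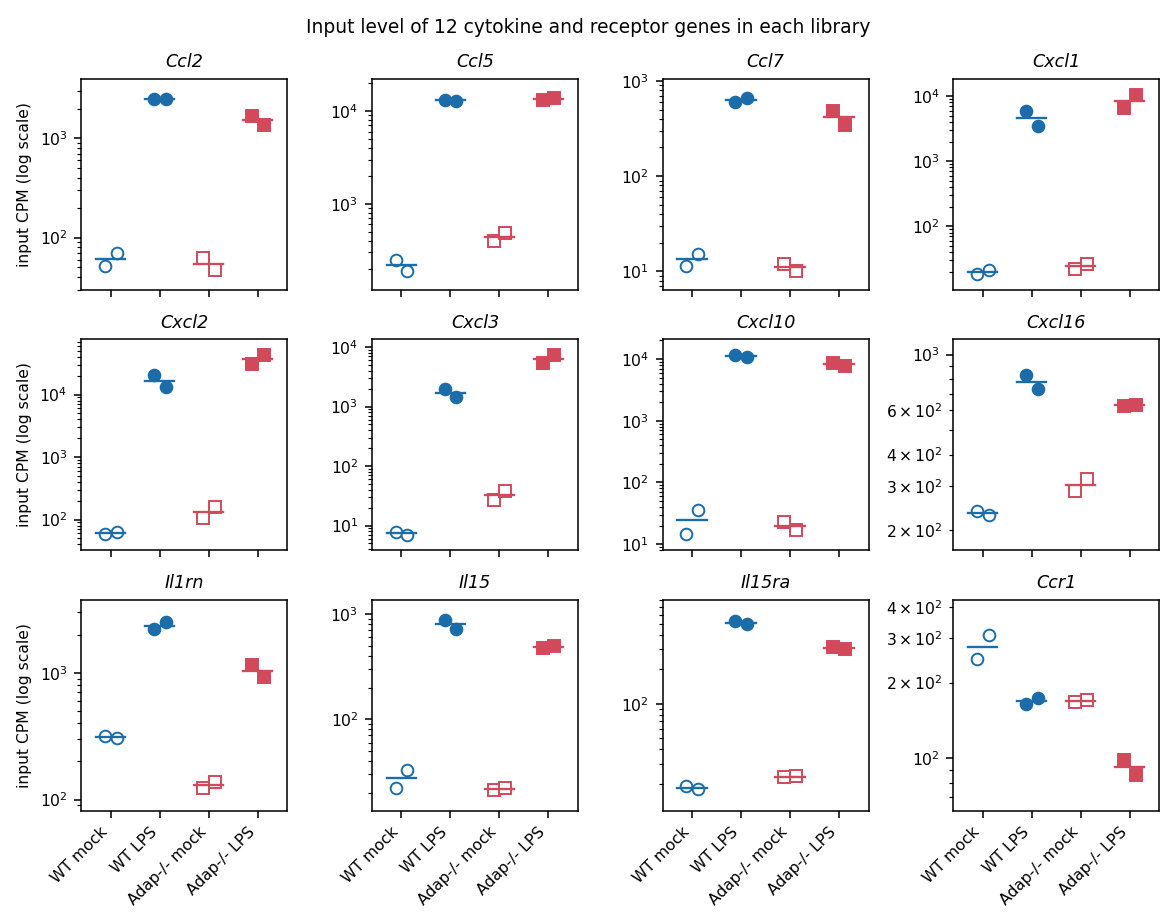
Input level in CPM (y axis, log scale) of 12 genes in each input library, by group; points are single replicates and lines group means (n = 2). Cxcl3 is higher in Adap-/- than in WT libraries with and without LPS, Il1rn and Ccr1 are lower, and Ccl2, Ccl7, Il15 and Il15ra separate the genotypes after LPS.

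Among the 5 interleukins, Il1a, Il12b and Il15 rose, the shared peak of Il16 fell and the summed peaks of Il27 were not called in either genotype. Il1a, an IL-1 family alarmin, was at 334 and 330.4 CPM in WT mock, 13884 and 9838 in WT LPS, 399.5 and 445 in Adap-/- mock and 17000.1 and 23151 in Adap-/- LPS libraries. Both Il1a peaks are also annotated to an unnamed gene on the other strand. Il12b, the subunit that IL-12 and IL-23 have in common, had 1 and 2 reads in the WT mock and 571 and 325 in the WT LPS input libraries. The ratio of its scaled counts was 379 in WT PMs (95% counting interval 129 to 1842). In Adap-/- PMs it had 6 and 3 reads in the mock and 942 and 757 in the LPS input libraries. Il12b passes the count filter only by its LPS reads and could hardly be called lower, so its calls with LPS add little to these reads. Il15, a survival factor of NK and memory T cells, was at 22 and 32.6 CPM in WT mock, 874 and 720.3 in WT LPS, 21 and 22.1 in Adap-/- mock and 475 and 496 in Adap-/- LPS libraries. In each of these 3 genes every LPS library was above every mock library. Its log2 fold change was 4.88 ± 0.16 (adjusted p = 2.14e-13) in WT and 4.49 ± 0.16 (adjusted p = 7.77e-13) in Adap-/- PMs. Il27, a subunit of the cytokine IL-27, has 1 peak shared with the 3' UTR of Apobr and 1 of its own. All of its mock input reads lie on the shared peak, with 113 and 93 reads in WT mock, 69 and 45 in WT LPS, 95 and 113 in Adap-/- mock and 56 and 65 in Adap-/- LPS libraries. Its own peak had 0 reads in each of the 4 mock libraries, 20 and 10 in the WT LPS and 30 and 31 in the Adap-/- LPS libraries. With both peaks summed the log2 fold change was -0.17 ± 0.22 (adjusted p = 0.525) in WT and 0.16 ± 0.21 (adjusted p = 0.556) in Adap-/- PMs. With its own peak alone edgeR called Il27 higher with LPS in both genotypes. With 0 mock reads, that peak passes the count filter only by its LPS reads and could not be called lower. The call therefore adds nothing to the read counts given.

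Of the other ligands, Csf1, Lif and Osm rose in both genotypes. Csf1, the growth factor of macrophages, was at 66 and 64.7 CPM in WT mock, 549.9 and 475 in WT LPS, 121 and 96.7 in Adap-/- mock and 542 and 546 in Adap-/- LPS libraries, a log2 fold change of 2.98 ± 0.12 (adjusted p = 4.40e-12) in WT and 2.32 ± 0.12 (adjusted p = 5.54e-11) in Adap-/- PMs. Lif, an IL-6 family cytokine, was at 1.02 and 1.08 CPM in WT mock, 12.4 and 11.6 in WT LPS, 0.263 and 1.21 in Adap-/- mock and 28.2 and 39.4 in Adap-/- LPS libraries, from at most 5 reads in any mock library. Osm, of the same family, changed by 1.40 ± 0.32 (adjusted p = 0.00119) in WT and 1.74 ± 0.32 (adjusted p = 0.000257) in Adap-/- PMs, and the WT value was 0.80 (adjusted p = 0.0649) without WT LPS replicate 1. Of the 5 tested TNF superfamily ligands 3 rose and 2, which share 1 peak, fell in each genotype, where 30.2% and 28.9% of all genes did in WT and 28.5% and 26.0% in Adap-/- PMs. Tnfsf15, a T cell costimulator also called TL1A, was at 7.94 and 10.8 CPM in WT mock, 2096 and 2031 in WT LPS, 18.1 and 26.2 in Adap-/- mock and 1997 and 2841 in Adap-/- LPS libraries. Tnfsf9, another costimulatory ligand of T cells, was at 20.7 and 26.7 CPM in WT mock, 852 and 859.7 in WT LPS, 26.5 and 39.3 in Adap-/- mock and 734 and 841 in Adap-/- LPS libraries. Both were raised in every LPS library. Tnfsf10, which encodes the death ligand TRAIL, had 2 and 0 reads in the WT mock and 317 and 266 in the WT LPS input libraries, a ratio of 370.0 (95% counting interval 102 to 3062). In Adap-/- PMs it had 4 and 0 reads in mock and 191 and 145 in LPS libraries. Tnfsf10 and Lif also pass the count filter only by their LPS reads and could hardly be called lower. The peak that Tnfsf12 (TWEAK) and Tnfsf13 (APRIL) share fell from 403 and 393 to 94.5 and 97 CPM in WT and from 269 and 266 to 66.6 and 62.8 CPM in Adap-/- PMs. Its log2 fold change was -2.05 ± 0.10 (adjusted p = 2.52e-11) in WT and -2.05 ± 0.10 (adjusted p = 5.11e-11) in Adap-/- PMs, with no overlap between mock and LPS in either genotype.

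The chemokine receptors moved both ways. Ccrl2, an atypical receptor that binds chemerin, was at 942 and 798 CPM in WT mock, 9671 and 8454 in WT LPS, 958 and 1047 in Adap-/- mock and 7255 and 7639 in Adap-/- LPS libraries, a log2 fold change of 3.39 ± 0.14 (adjusted p = 3.00e-12) in WT and 2.89 ± 0.13 (adjusted p = 1.89e-11) in Adap-/- PMs. Ccr7, which guides cells to lymph nodes, rose by 1.76 ± 0.30 (adjusted p = 0.000118) in WT and 2.25 ± 0.32 (adjusted p = 1.84e-05) in Adap-/- PMs, though WT LPS replicates 1 and 2 differed, at 27.5 and 56.1 CPM. Cxcr4, the receptor of CXCL12, was at 318 and 234 CPM in WT mock, 29.6 and 14.5 in WT LPS, 286 and 329 in Adap-/- mock and 24.6 and 29.2 in Adap-/- LPS libraries. Its level fell in every LPS library, with a log2 fold change of -3.61 ± 0.22 (adjusted p = 5.48e-10) in WT and -3.53 ± 0.21 (adjusted p = 5.59e-10) in Adap-/- PMs. Ccr1, a receptor of CCL3 and CCL9, was at 248 and 308 CPM in WT mock, 165 and 173 in WT LPS, 168 and 171 in Adap-/- mock and 98.6 and 85.5 in Adap-/- LPS libraries. It fell by 0.72 in WT and by 0.88 in Adap-/- PMs on the log2 scale, and the WT LPS and Adap-/- mock libraries had about the same level.

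Of the 16 interleukin receptor genes 5 rose and 5 fell in each genotype, where 30.2% of all genes rose and 28.9% fell in WT and 28.5% and 26.0% in Adap-/- PMs. Il15ra, the chain that presents IL-15 to neighbouring cells, was at 18.9 and 17.8 CPM in WT mock, 525 and 495 in WT LPS, 22.9 and 23.3 in Adap-/- mock and 313 and 301 in Adap-/- LPS libraries. Its log2 fold change was 4.80 ± 0.12 (adjusted p = 1.95e-14) in WT and 3.73 ± 0.12 (adjusted p = 2.30e-13) in Adap-/- PMs, and no LPS library came near a mock library. Il13ra1 and Il4r, which form the receptor of IL-13, rose by 1.82 and 0.73 in WT and by 1.63 and 1.06 in Adap-/- PMs. Il17ra, the common IL-17 receptor chain, rose by 1.96 and 1.71. Il6ra, the binding chain of the IL-6 receptor, was at 25.6 and 20.8 CPM in WT mock, 1.54 and 1.81 in WT LPS, 26.5 and 22.1 in Adap-/- mock and 2.82 and 3.29 in Adap-/- LPS libraries. It fell to a few CPM in every LPS library, with a log2 fold change of -3.77 ± 0.35 (adjusted p = 1.07e-07) in WT and -2.99 ± 0.30 (adjusted p = 3.58e-07) in Adap-/- PMs. Il6st, the signalling chain of the whole IL-6 family, was at 176 and 175 CPM in WT mock, 67 and 87.2 in WT LPS, 164 and 150.0 in Adap-/- mock and 94 and 84.7 in Adap-/- LPS libraries, and fell by 1.19 in WT and by 0.81 in Adap-/- PMs on the log2 scale. The chains of the IL-10 receptor had other values, with Il10ra at 0.25 ± 0.11 (adjusted p = 0.0641) in WT PMs and Il10rb (ENSMUSG00000022969) at -0.09 ± 0.17 (adjusted p = 0.698), neither of them called.

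Receptors for TNF family ligands also split, with 4 of 7 higher and 3 lower in each genotype, where 30.2% and 28.9% of all genes were in WT and 28.5% and 26.0% in Adap-/- PMs. Tnfrsf1b and Tnfrsf1a encode both TNF receptors. Tnfrsf1b was at 3534 and 3266 CPM in WT mock, 11572 and 11999 in WT LPS, 3583 and 3621 in Adap-/- mock and 11631 and 12046 in Adap-/- LPS libraries, a log2 fold change of 1.80 ± 0.12 (adjusted p = 1.47e-09) in WT and 1.71 ± 0.12 (adjusted p = 3.07e-09) in Adap-/- PMs. Tnfrsf1a was at 279 and 315 CPM in WT mock, 569 and 615 in WT LPS, 277 and 268 in Adap-/- mock and 471 and 438 in Adap-/- LPS libraries. Both rose in each genotype without overlap. Tnfrsf8 (CD30) rose by 2.94 in WT and 2.59 in Adap-/- PMs and Tnfrsf14 (HVEM) by 1.47 and 1.38. Tnfrsf21, a death receptor, fell from 123 and 102 to 45.1 and 42.7 CPM in WT and from 133 and 134 to 60.7 and 54.8 CPM in Adap-/- PMs. Tnfrsf13b (TACI), a receptor of APRIL, changed by -0.96 in WT and -0.81 in Adap-/- PMs. Tnfrsf11a (RANK) changed by -1.48 ± 0.39 (adjusted p = 0.00409) in WT and -1.15 ± 0.38 (adjusted p = 0.0182) in Adap-/- PMs. In WT PMs the Tnfrsf11a value without 1 library was -0.96 (adjusted p = 0.0844) without WT LPS replicate 1, and in Adap-/- PMs it was -0.97 (adjusted p = 0.113) without Adap-/- mock replicate 2 and -0.85 (adjusted p = 0.127) without Adap-/- LPS replicate 2.

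The interferon receptor chains differed in direction. Ifngr1, the binding chain of the interferon gamma receptor, was at 312 and 314 CPM in WT mock, 102 and 105 in WT LPS, 342 and 317 in Adap-/- mock and 121 and 115 in Adap-/- LPS libraries. It fell in all LPS libraries, with a log2 fold change of -1.59 ± 0.10 (adjusted p = 7.62e-10) in WT and -1.48 ± 0.10 (adjusted p = 1.78e-09) in Adap-/- PMs. The peaks of Ifnar2, a chain of the type I interferon receptor that here shares its reads with the second Il10rb identifier, rose by 1.66 and 1.27. Ifnar1, the other chain, had 0.49 ± 0.09 (adjusted p = 0.000229) in WT and 0.28 ± 0.09 (adjusted p = 0.0182) in Adap-/- PMs. In Adap-/- PMs the Ifnar1 value without 1 library was 0.26 (adjusted p = 0.0958) without Adap-/- mock replicate 1, 0.27 (adjusted p = 0.0796) without Adap-/- mock replicate 2 and 0.21 (adjusted p = 0.161) without Adap-/- LPS replicate 2. With upper-quartile factors Ifnar1 was at 0.21 (adjusted p = 0.0629) in WT PMs. Of the receptors for colony stimulating factors and IL-6 family ligands, Csf3r, the G-CSF receptor, rose from 123 and 137 to 304 and 369 CPM in WT and from 163 and 164 to 369.7 and 388 CPM in Adap-/- PMs. The GM-CSF receptor gene Csf2ra had 0.18 in WT and 0.04 in Adap-/- PMs and Csf2rb2 -0.07 and -0.02, neither of them called.

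Il1rn, which encodes the secreted antagonist of the IL-1 receptor, was the only inhibitor with a peak. It was at 318 and 304 CPM in WT mock, 2203 and 2495 in WT LPS, 123 and 138 in Adap-/- mock and 1148 and 929 in Adap-/- LPS libraries. LPS raised it by 2.92 ± 0.12 (adjusted p = 5.56e-12) in WT and 2.99 ± 0.13 (adjusted p = 6.82e-12) in Adap-/- PMs. Each Adap-/- library was below each WT library of the same treatment.

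Signalling genes downstream of these receptors were counted from lists of fixed members. Of all tested genes, 30.2% rose and 28.9% fell with LPS in WT PMs, and 28.5% and 26.0% in Adap-/- PMs. Of 12 tested JAK-STAT genes, 8 rose and 2 fell with LPS in WT PMs and 6 rose and 2 fell in Adap-/- PMs. Socs3, a feedback inhibitor of IL-6 type receptors, rose by 4.89 and 5.26, and Socs1, which restrains interferon signalling, by 5.29 and 5.83. Of 12 tested TNF receptor adaptors, 5 rose in WT and 6 in Adap-/- PMs and 0 fell, with Traf1 at 4.89 and 4.56. Of 5 tested genes of cytokine mRNA decay and cytokine release, 4 rose and 1 fell in WT PMs and 3 rose and 1 fell in Adap-/- PMs. Zfp36, an RNA-binding protein that destabilizes cytokine mRNA, rose by 1.12 and 1.02. Between genotypes, Jak2 and Birc3 were higher in Adap-/- mock PMs, by 0.71 and 0.72, Socs6 was lower, at -0.40, and Zc3h12c, a relative of the cytokine mRNA nuclease regnase, was higher in mock and LPS PMs, by 1.06 and 0.36.

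Without LPS, Adap-/- PMs had more of the neutrophil attractant transcript Cxcl3 and of Ccl5 and Csf1, and less Il1rn and Ccr1, than WT PMs. In mock PMs 11 of the 64 members were higher in Adap-/- PMs, where 8.71% of all tested genes were, and 7 were lower, where 8.65% were. The median log2 fold change of the members was 0.07 and that of all genes 0.01. Cxcl3 was at 7.94 and 7.01 CPM in WT and 27.1 and 38.3 CPM in Adap-/- mock libraries, a log2 fold change of 2.13 ± 0.29 (adjusted p = 0.000231). Ccl5 was at 250.1 and 189.7 CPM in WT and 399 and 479 CPM in Adap-/- mock libraries, with 1.00 ± 0.15 (adjusted p = 0.000388). Csf1 was at 66 and 64.7 CPM in WT and 121 and 96.7 CPM in Adap-/- mock libraries, with 0.73 ± 0.13 (adjusted p = 0.00111). In these 3 genes both Adap-/- libraries were above both WT libraries. Il1rn was at 318 and 304 CPM in WT and 123 and 138 CPM in Adap-/- mock libraries, a log2 fold change of -1.25 ± 0.12 (adjusted p = 1.37e-05). Ccr1 was at 248 and 308 CPM in WT and 168 and 171 CPM in Adap-/- mock libraries, with -0.71 ± 0.12 (adjusted p = 0.000731), and the peak of Tnfsf12 and Tnfsf13 had -0.57 ± 0.09 (adjusted p = 0.000599). Both Adap-/- libraries were below both WT libraries in each of them. These 5 genes and this peak stayed called under every alternative that gave them a value.

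The other calls in mock PMs were lost with at least 1 library left out, which also leaves fewer samples in the test. The number of members higher in Adap-/- PMs was 11 with all libraries, 3 without Adap-/- mock replicate 2 and 5 without WT mock replicate 2, where 8.71%, 3.32% and 5.15% of all genes were. The number lower was 7 and without Adap-/- mock replicate 2 it was 4, where 8.65% and 3.07% of all genes were. Cxcl2 had 1.11 ± 0.24 (adjusted p = 0.00523), and 0.79 (adjusted p = 0.109) without Adap-/- mock replicate 2, the higher of the Adap-/- mock libraries at 157 CPM. Tnfsf15 had 1.25 ± 0.27 (adjusted p = 0.00529), and 0.96 (adjusted p = 0.0931) without Adap-/- mock replicate 2. Tnfrsf14 had 0.70 ± 0.20 (adjusted p = 0.0212), and 0.62 (adjusted p = 0.124) without WT mock replicate 2 and 0.59 (adjusted p = 0.176) without Adap-/- mock replicate 2. Il10rb (ENSMUSG00000022969) had -0.62 ± 0.17 (adjusted p = 0.0225), and -0.58 (adjusted p = 0.0949) without WT mock replicate 2 and -0.41 (adjusted p = 0.256) without Adap-/- mock replicate 2. Csf2ra had 0.36, and 0.28 (adjusted p = 0.131) without WT mock replicate 2 and 0.32 (adjusted p = 0.143) without Adap-/- mock replicate 2. The shared peak of Cxcl16 had 0.37, and 0.35 (adjusted p = 0.0854) without WT mock replicate 2 and 0.29 (adjusted p = 0.208) without Adap-/- mock replicate 2. The peaks of Ifnar2 and the second Il10rb identifier had 0.40, and 0.36 (adjusted p = 0.0654) without WT mock replicate 2, 0.39 (adjusted p = 0.0579) without Adap-/- mock replicate 1 and 0.40 (adjusted p = 0.0677) without Adap-/- mock replicate 2. Il7r had -0.37, and -0.44 (adjusted p = 0.0622) without Adap-/- mock replicate 1 and -0.29 (adjusted p = 0.256) without Adap-/- mock replicate 2. The calls of Il12rb2 (1.07) and Ccl9 (-0.50) were each lost without any 1 of the 4 mock replicates, with the replicate number as a block (adjusted p = 0.061 and 0.0501) and with only the libraries compared (0.0582 and 0.105). That of Il12rb2 was also lost without a filter (0.0516) and that of Ccl9 with DESeq2 (0.106). With 1 library left out their log2 fold changes were 1.24 (adjusted p = 0.0798) without WT mock replicate 1, 0.93 (adjusted p = 0.23) without WT mock replicate 2, 1.18 (adjusted p = 0.0981) without Adap-/- mock replicate 1 and 0.95 (adjusted p = 0.249) without Adap-/- mock replicate 2 for Il12rb2 and -0.48 (adjusted p = 0.112) without WT mock replicate 1, -0.52 (adjusted p = 0.119) without WT mock replicate 2, -0.39 (adjusted p = 0.242) without Adap-/- mock replicate 1 and -0.63 (adjusted p = 0.0971) without Adap-/- mock replicate 2 for Ccl9.

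After LPS, Adap-/- PMs had more Cxcl2, Cxcl3, Il12b and Lif and less Il1rn, Ccr1, Ccl2, Il15, Il15ra and Tnfsf10 than WT PMs. Of the 64 members 7 were higher, where 6.03% of all genes were, and 18 were lower, where 9.78% were. The median log2 fold change of the members was 0.01 and that of all genes -0.01. Cxcl3 was at 1949.9 and 1426 CPM in WT and 5397 and 7318 CPM in Adap-/- LPS libraries, a log2 fold change of 1.91 ± 0.17 (adjusted p = 5.36e-06). Cxcl2 was at 20312 and 13238 CPM in WT and 30570.2 and 42362 CPM in Adap-/- LPS libraries, with 1.11 ± 0.21 (adjusted p = 0.00224). Both Adap-/- libraries were above both WT libraries for these neutrophil attractants. Il12b was at 176 and 118 CPM in WT and 266 and 277 CPM in Adap-/- LPS libraries, with 0.87 ± 0.15 (adjusted p = 0.0011). Lif was at 12.4 and 11.6 CPM in WT and 28.2 and 39.4 CPM in Adap-/- LPS libraries, with 1.48 ± 0.27 (adjusted p = 0.00186). The groups did not overlap for either cytokine.

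Among the members lower in Adap-/- PMs after LPS, Il1rn was at 2203 and 2495 CPM in WT and 1148 and 929 CPM in Adap-/- LPS libraries, a log2 fold change of -1.18 ± 0.12 (adjusted p = 1.07e-05). Ccr1 was at 165 and 173 CPM in WT and 98.6 and 85.5 CPM in Adap-/- LPS libraries, with -0.88 ± 0.13 (adjusted p = 0.000286). Each Adap-/- library was below each WT library for both, as it was in mock PMs. Il15 and Il15ra encode a cytokine and the chain that presents it. Il15 was at 874 and 720.3 CPM in WT and 475 and 496 CPM in Adap-/- LPS libraries, with -0.72 ± 0.12 (adjusted p = 0.000976), and Il15ra at 525 and 495 CPM in WT and 313 and 301 CPM in Adap-/- LPS libraries, with -0.74 ± 0.09 (adjusted p = 0.000111). The replicates of each group lay closer to each other than to the other genotype. Tnfsf10 was at 97.9 and 96.3 CPM in WT and 53.9 and 53 CPM in Adap-/- LPS libraries, with -0.87 ± 0.18 (adjusted p = 0.00347). Of the monocyte attractants, Ccl2 was at 2512 and 2507 CPM in WT and 1684 and 1359 CPM in Adap-/- LPS libraries, with -0.73 ± 0.14 (adjusted p = 0.00213). Ccl9 was at 149 and 168 CPM in WT and 101 and 97.5 CPM in Adap-/- LPS libraries, with -0.67 ± 0.11 (adjusted p = 0.000887), and the peak of Tnfsf12 and Tnfsf13 at 94.5 and 97 CPM in WT and 66.6 and 62.8 CPM in Adap-/- LPS libraries, with -0.57 ± 0.11 (adjusted p = 0.00244). Every one of these Adap-/- libraries was again below the WT libraries. These members and the 4 named as higher stayed called under every alternative that gave them a value, 13 of the 25 called.

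The remaining 12 calls after LPS were lost with at least 1 library left out. Without Adap-/- LPS replicate 2 the number of members higher fell from 7 to 4 and the number lower from 18 to 11, while those of all genes fell from 6.03% to 2.6% and from 9.78% to 4.82%. Cxcl1 was at 5818 and 3444 CPM in WT and 6460.5 and 10316 CPM in Adap-/- LPS libraries, a log2 fold change of 0.85 ± 0.22 (adjusted p = 0.0138), which was 0.47 (adjusted p = 0.227) without Adap-/- LPS replicate 2, 0.52 (adjusted p = 0.144) without WT LPS replicate 2 and 0.84 (adjusted p = 0.134) with DESeq2. Il1a, which has no peak of its own, was at 13884 and 9838 CPM in WT and 17000.1 and 23151 CPM in Adap-/- LPS libraries, with 0.75 ± 0.17 (adjusted p = 0.00677). Its value was 0.51 (adjusted p = 0.116) without Adap-/- LPS replicate 2 and 0.52 (adjusted p = 0.0813) without WT LPS replicate 2. In both genes Adap-/- LPS replicate 2 was the highest library and WT LPS replicate 2 the lowest of the 4. Tnfrsf14 had 0.62 ± 0.16 (adjusted p = 0.0154), with 0.43 (adjusted p = 0.19) and 0.53 (adjusted p = 0.142) without Adap-/- LPS replicate 2 and WT LPS replicate 1. Ccl7 had -0.61 ± 0.14 (adjusted p = 0.00621), and -0.38 (adjusted p = 0.0934) without Adap-/- LPS replicate 2. Among receptors, Il13ra1 had -0.54, and -0.45 (adjusted p = 0.0813) without WT LPS replicate 2 and -0.44 (adjusted p = 0.114) without Adap-/- LPS replicate 2. Tnfrsf1a had -0.39, and -0.33 (adjusted p = 0.0992) without WT LPS replicate 2 and -0.33 (adjusted p = 0.127) without Adap-/- LPS replicate 2. Tnfrsf8 had -0.61, and -0.52 (adjusted p = 0.0671) without WT LPS replicate 2 and -0.49 (adjusted p = 0.0926) without Adap-/- LPS replicate 2. Il7r had -0.39, and -0.44 (adjusted p = 0.0512) without WT LPS replicate 1, -0.34 (adjusted p = 0.112) without WT LPS replicate 2, -0.45 (adjusted p = 0.0536) without Adap-/- LPS replicate 1 and -0.34 (adjusted p = 0.182) without Adap-/- LPS replicate 2. Cx3cr1, Il11ra1 and Cxcl16 also have no peak of their own. Their values were -0.41, -0.41 and -0.32, and with 1 library left out -0.38 (adjusted p = 0.0631) without WT LPS replicate 1 and -0.39 (adjusted p = 0.0549) without Adap-/- LPS replicate 1 for Cx3cr1, -0.39 (adjusted p = 0.146) without WT LPS replicate 1, -0.42 (adjusted p = 0.085) without WT LPS replicate 2 and -0.33 (adjusted p = 0.207) without Adap-/- LPS replicate 2 for Il11ra1 and -0.21 (adjusted p = 0.333) without WT LPS replicate 1, -0.30 (adjusted p = 0.165) without Adap-/- LPS replicate 1 and -0.32 (adjusted p = 0.159) without Adap-/- LPS replicate 2 for Cxcl16. With DESeq2 the adjusted p was also 0.0526 for Tnfrsf14 (0.61), 0.0753 for Il11ra1 (-0.42) and 0.0811 for Cxcl16 (-0.32), and Cxcl16 was not called with upper-quartile factors (0.0603), the stricter filter (0.0546) or the replicate block (0.0595). Il7r lies near the targeted locus, and the part of linkage in its value was not tested.

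**Figure D4:**
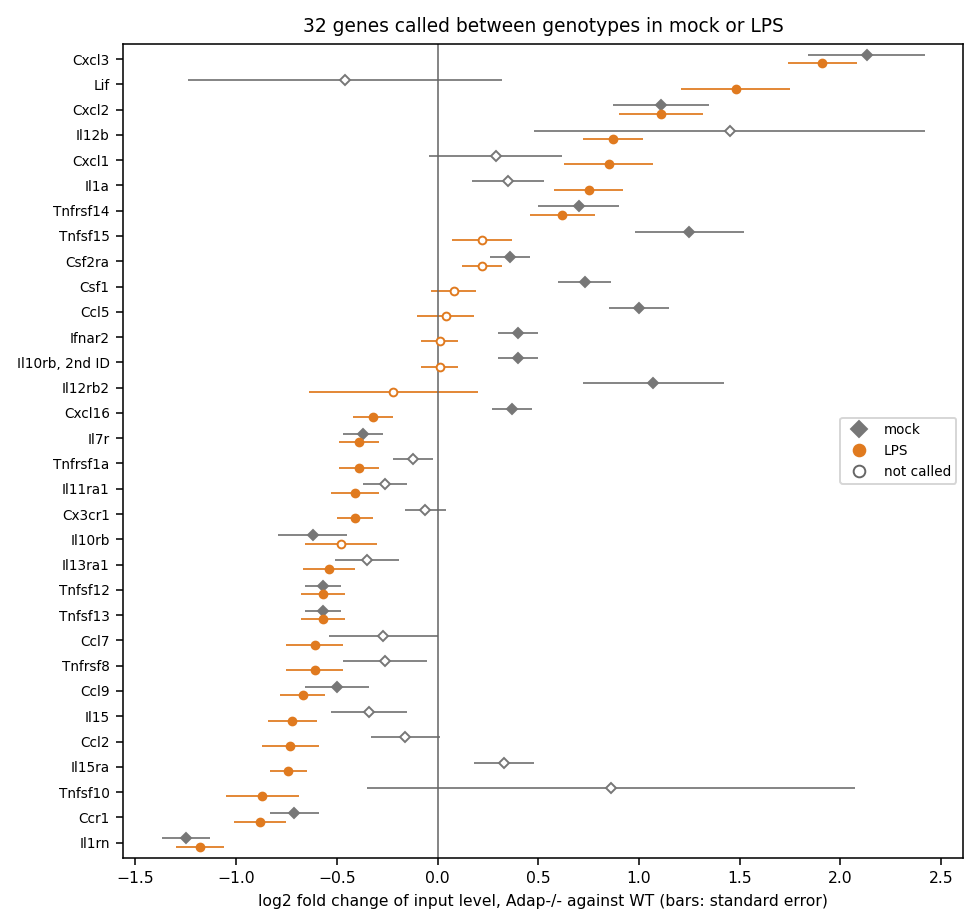
Log2 fold change of input level between Adap-/- and WT PMs (x axis) for 32 genes called in mock or LPS PMs (y axis), with mock as grey diamonds and LPS as orange circles; bars are standard errors, from 2 replicates per group, and open symbols were not called. Cxcl3 and Cxcl2 lie to the right and Il1rn and Ccr1 to the left in both treatments, while Ccl5 and Csf1 lie to the right in mock PMs and near 0 after LPS.

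In both treatments, with the limits given above, 3 members were higher in Adap-/- PMs (Cxcl2, Cxcl3 and Tnfrsf14), where 2.85% of all genes were, and 6 were lower (Ccl9, Ccr1, Il1rn, Il7r, and Tnfsf12 and Tnfsf13 with the same peak), where 4.01% were. Of the 6 tested macrophage markers, 2 were called lower in Adap-/- PMs after LPS and 0 higher, where 9.78% and 6.03% of all genes were. Fcgr1, a receptor of IgG, was at 272 and 383 CPM in WT and 146 and 123 CPM in Adap-/- LPS libraries, with -1.28 ± 0.17 (adjusted p = 0.000204), and Mertk, a receptor for apoptotic cells, at 390.3 and 453 CPM in WT and 335 and 344 CPM in Adap-/- LPS libraries, with -0.32 ± 0.10 (adjusted p = 0.0371). Adgre1 had 0.93 ± 0.31 (adjusted p = 0.0554), Cd68 -0.18 ± 0.11 (adjusted p = 0.301), Msr1 -0.13 ± 0.11 (adjusted p = 0.499) and Lyz2 -0.11 ± 0.13 (adjusted p = 0.622). In mock PMs the scavenger receptor Msr1 was called higher in Adap-/- PMs, with 0.48 ± 0.12 (adjusted p = 0.0117), and the other 5 were not called. Of all genes 8.71% were higher and 8.65% lower in mock PMs. Whether a different make-up of the cells had a part in the genotype differences was not tested.

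Whether LPS acted more or less strongly in Adap-/- than in WT PMs was tested directly. This test uses the same libraries as the comparisons above. The LPS response of 3 members was smaller in Adap-/- PMs, where 1.29% of all genes had a smaller one, and that of 0 members was larger, where 0.358% of all genes had a larger one (edgeR). At an unadjusted p below 0.05, 14 of the 64 members passed in either direction, 2 of them larger and 12 smaller, where 12.7% of all genes passed. DESeq2 gave an adjusted p to 43 members and 1524 genes in all, and called 5 members smaller and 0 larger, where it called 5.84% and 0.722% of those genes. Il15ra had the clearest difference, -1.07 ± 0.18 (adjusted p = 0.00451). Its log2 LPS response was 4.80 in WT and 3.73 in Adap-/- PMs, and the call held under every alternative run. Ccl5 had -0.95 ± 0.20 (adjusted p = 0.0233), with responses of 5.89 and 4.94. Its LPS levels lay together, at 13224 and 12824 CPM in WT and 13206 and 13775 CPM in Adap-/- LPS libraries, and its mock levels apart. Csf1, higher in mock Adap-/- PMs, had -0.65 ± 0.17 (adjusted p = 0.0655), not called. Cxcl16 had -0.68 ± 0.14 (adjusted p = 0.0204), with responses of 1.74 and 1.05 on a peak of 75 bases that Zmynd15 shares. With 1 library left out Ccl5 was -0.93 (adjusted p = 0.0855) without WT LPS replicate 1, -0.98 (adjusted p = 0.0557) without WT LPS replicate 2, -0.80 (adjusted p = 0.226) without Adap-/- mock replicate 2, -0.92 (adjusted p = 0.0986) without Adap-/- LPS replicate 1 and -0.98 (adjusted p = 0.0745) without Adap-/- LPS replicate 2. Cxcl16 was -0.58 (adjusted p = 0.11) without WT LPS replicate 1, -0.59 (adjusted p = 0.179) without Adap-/- mock replicate 2, -0.67 (adjusted p = 0.0937) without Adap-/- LPS replicate 1 and -0.69 (adjusted p = 0.0745) without Adap-/- LPS replicate 2. The count of 3 fell to 1 without WT LPS replicate 1, Adap-/- mock replicate 2 or Adap-/- LPS replicate 1, where 0.839%, 0.498% and 0.755% of all genes were called, and to 2 without WT LPS replicate 2 or Adap-/- LPS replicate 2, where 0.755% were in each. For the neutrophil attractants the difference was 0.56 ± 0.39 (adjusted p = 0.613) for Cxcl1, 0.00 ± 0.35 (adjusted p = 0.997) for Cxcl2 and -0.22 ± 0.34 (adjusted p = 0.847) for Cxcl3, none of them called, which does not show equal responses. Lif had the largest positive value, 1.93 ± 0.86 (adjusted p = 0.354), not called.

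The m6A signal of a peak is its IP-to-input ratio, TMM-scaled IP CPM over input CPM of the same replicate number. Of 119 member peaks, 110 had at least 10 reads in each LPS input library. Their median ratio, as a mean over the 4 LPS replicates, was 0.746, against 0.981 for all 6020 such peaks, and 38 lay above that value. Input is the denominator of the ratio, so members were set beside other peaks of like input. Below 20 input CPM, the median was 1.2 for 9 member peaks and 1.35 for 1592 other peaks, from 20 to 50 CPM 1.14 for 14 and 0.999 for 1670, and from 50 to 100 CPM 0.779 for 13 and 0.848 for 976. From 100 to 300 CPM it was 0.743 for 35 member peaks and 0.743 for 1004 others, and from 300 to 1000 CPM 0.521 for 20 and 0.557 for 447. From 1000 to 3000 CPM it was 0.147 for 5 member peaks and 0.498 for 153 others, and above 3000 CPM 0.135 for 14 and 0.402 for 68. By role, the medians were 0.0991 for interleukins, 0.114 for CXC and 0.142 for CC chemokines, 0.458 for TNF superfamily ligands, 0.567 for Il1rn, 0.901 for chemokine receptors, 1.01 for interleukin receptors, 0.517 for receptors of colony stimulating factors and IL-6 family ligands, 0.776 for interferon receptors, 1.1 for the TNF receptor superfamily and 1.37 for Csf1, Lif and Osm. Peak length was not matched between roles, and the median length of all peaks was 175 bases. Ccl5, Ccl2 and Ccl3 have peaks of 4734, 1695 and 1512 bases, with ratios of 0.122, 0.147 and 0.142. Ccl7 has a peak of 175 bases at 0.0794, and Csf2rb has a peak of 9209 bases at 0.875. Whether peak length had a part in the differences between roles was not tested.

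**Figure D5:**
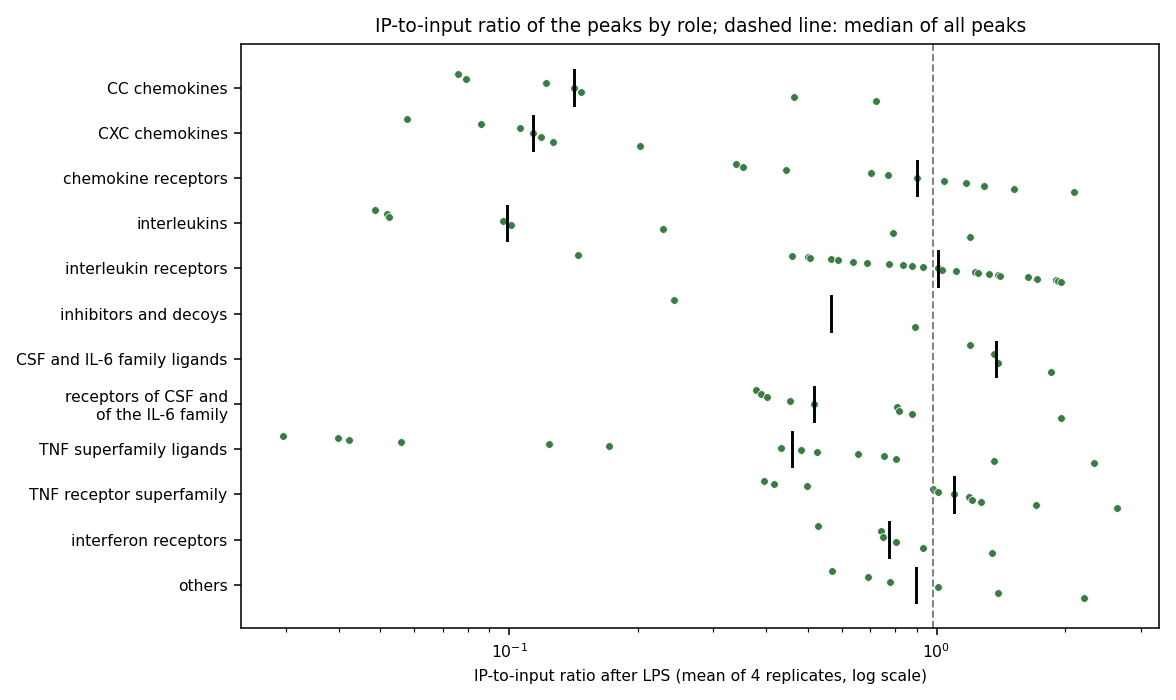
IP-to-input ratio after LPS (x axis, log scale; mean of 4 LPS replicates) of the 110 member peaks with sufficient input, by role (y axis); points are peaks, black lines the medians of a role and the dashed line the median of all 6020 peaks, 0.981. Chemokine and interleukin peaks lie mostly far to the left, peaks of receptors for interleukins, chemokines and TNF family ligands lie on both sides of the dashed line, and most of those for interferons and for colony stimulating factors and IL-6 family ligands lie to its left.

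The highest ratio was on a peak in the 3' UTR of Tnfrsf1b (chr4:144940932-144941357), at 2.36 and 2.53 in WT and 2.93 and 2.76 in Adap-/- PMs after LPS. High ratios were also on the stop codon peaks of Tnfsf10 (chr3:27389621-27390071), at 2.18 and 2.61 in WT and 2.71 and 1.84 in Adap-/- PMs after LPS, and Ccr7 (chr11:99035446-99035796), at 2.1 and 2.05 in WT and 2.37 and 1.88 in Adap-/- PMs after LPS. A peak of Il4i1 that lies on Nup62 averaged 2.21. The stop codon peak of Il1r1, the signalling receptor of IL-1, was at 1.94 and 2.01 in WT and 1.92 and 1.96 in Adap-/- PMs after LPS, and that of Osmr, the oncostatin M receptor, averaged 1.95. In each of these peaks all 4 LPS replicates were above the median of all peaks. The lowest ratios were on 3 peaks in the 3' UTR of Tnfsf15, averaging 0.0296, 0.0399 and 0.0422, followed by Il15 with 0.0485, Il12b with 0.0518 and a shared peak of Il1a with 0.0524. The Il15 peak spans 33940 bases. Coordinates are those of the deposited table, on GRCm39 as the submitters' notes give it.

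Peaks of 1 transcript could differ widely. On Tnfrsf1b, the highest peak is followed within 50 bases by another 3' UTR peak (chr4:144941382-144941707) at 0.341 and 0.313 in WT and 0.476 and 0.536 in Adap-/- PMs after LPS. None of these values came near those of its neighbour. On Tnfsf15, peaks from 63643339 to 63644464 averaged between 0.0296 and 0.0559, whereas the stop codon peak at chr4:63647239-63648089 averaged 0.806. On Tnfsf9, the CDS peak, which an unnamed gene shares, averaged 0.124 and the stop codon peak 1.36. Il7r had 1.39 on its 3' UTR peak and 0.507 and 0.565 on its stop codon peaks, and Il4r 1.72 and 0.587 on neighbouring CDS peaks. Il10ra and Il1r1, whose input was called in no comparison, had ratios above 1 in all 8 replicates. Il10ra was at 1.38 and 2.05 in WT and 1.67 and 1.7 in Adap-/- mock PMs and at 1.73 and 1.93 in WT and 2.05 and 1.98 in Adap-/- PMs after LPS, and Il1r1 at 1.64 and 1.58 in WT and 1.83 and 1.82 in Adap-/- mock PMs.

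In mock PMs, ratios of some members that LPS raised differed widely between replicates. The stop codon peak of Cxcl1 was at 43.5 and 1.1 in WT and 3.17 and 36.5 in Adap-/- mock PMs, and at 0.128 and 0.0847 in WT and 0.0964 and 0.147 in Adap-/- PMs after LPS. Ccl3 was at 12.7 and 0.566 in WT and 1.05 and 11.1 in Adap-/- mock PMs, and at 0.15 and 0.111 in WT and 0.136 and 0.172 in Adap-/- PMs after LPS. WT mock replicate 1 and Adap-/- mock replicate 2 were highest in both genes, by more than 10 times the other replicate of their group. Other members that LPS raised showed no such gap, among them Ccr7, at 2.23 and 2.49 in WT and 3.36 and 2.3 in Adap-/- mock PMs, and the highest peak of Tnfrsf1b, at 2.02 and 2.54 in WT and 2.84 and 2.43 in Adap-/- mock PMs. The ratio of Cxcr4, which LPS lowers, was 1.42 and 1.8 in WT and 0.626 and 0.311 in Adap-/- PMs after LPS. Whether the mock-type RNA in the LPS IP libraries had a part in it was not tested.

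Tested across groups with all 16 libraries, no member peak of the 118 tested had a change of its ratio at an adjusted p below 0.05 in edgeR. For LPS against mock in WT PMs 0 member peaks were called, where 0% of all peaks were. At an unadjusted p below 0.05 there were 38 (4 higher, 34 lower), where 10.8% of all peaks passed, and DESeq2 called 1 higher and 23 lower, where it called 2.86% of all peaks. In Adap-/- PMs 0 were called for LPS against mock, with 0% of all peaks. There were 31 at an unadjusted p (3 higher, 28 lower), with 11.5% of all in either direction. DESeq2 called 0 higher and 12 lower, with 0.085% of all higher and 1.57% lower. The shares of all peaks at an unadjusted p are not split by direction here. Between genotypes in mock PMs 0 were called by edgeR, 0 at an unadjusted p and 0 by DESeq2, where 0%, 2.10% and 0% of all peaks were. Between genotypes after LPS 0 were called, 4 passed at an unadjusted p (1 higher, 3 lower) and DESeq2 called 0, where 0.0142%, 7.13% and 0.411% of all peaks were. For the genotype difference in the LPS response the members had 0, 0 and 0, and all peaks 0%, 3.23% and 0.0992%. Without WT mock replicate 2 (its IP and input library) edgeR called some member peaks lower for LPS against mock in WT PMs. The only WT mock IP library left is then replicate 1, which held LPS-type transcripts at 59% of their LPS level. These calls rest on that library, so no conclusion is drawn from them. The biological coefficient of variation of the fit was 30.6%.

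Without the 2 mock IP libraries that held most LPS-type RNA, an alternative chosen after seeing the data, edgeR called ratios of members for LPS against mock. In WT PMs 14 member peaks were lower and 0 higher after LPS, where 1.73% and 0.538% of all peaks were. In Adap-/- PMs 15 were lower and 2 higher, where 2.41% and 1.40% were. All lower peaks lay on members whose input LPS raised, among them Cxcl1, Cxcl2, Cxcl3, Cxcl10, Ccl3, Ccl5, Tnfsf9 and Tnfsf15 in both genotypes. That input is the denominator of the ratio. The share of all lower peaks that lie on genes raised by LPS is not given here, so this is not set against all peaks. The mock IP libraries kept in this setting still held LPS-type transcripts at 4.01% and 7.06% of their LPS level, against 0.785% and 1.08% in the input of the same replicates. These changes cannot be told apart from that excess. The 2 higher peaks, in Adap-/- PMs, were a CDS peak of Csf2rb2, whose input LPS left uncalled, at 0.90 ± 0.22 (adjusted p = 0.048), and the Il4i1 peak that lies on Nup62, at 1.02 ± 0.24 (adjusted p = 0.0406). Between genotypes after LPS, where the groups compared kept all libraries, this setting called 0 member peaks. Of all peaks it called 0.297% higher and 0.34% lower there. For the genotypes in mock PMs and the difference of the LPS responses, each genotype had a lone mock IP library, so no conclusion is drawn.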

How the data were processed

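Per the labels, 8 IP and 8 input libraries came from WT and Adap-/- PMs, with and without LPS. The authors deposited raw read counts per merged peak, with 8094 lines for 7069 peaks, as peaks annotated to more genes have 1 line per gene. Bowtie2 2.2.8, MACS2 2.1.2, DiffBind 2.8 and the build GRCm39 stand in the submitters' processing notes without a stated role. All 16 columns were mapped to samples and 0 were left out. Input counts were summed over the peaks of each gene and tested with edgeR 4.0.16 (R 4.3.3) by quasi-likelihood, after TMM scaling and filterByExpr (minimum count 10, minimum total 15), with p adjusted by Benjamini-Hochberg over all 4742 genes, with 1 mean per group. Counts of 201 genes were too low. The IP-to-input ratio was tested as the interaction of library type with group, over 7058 peaks, with 11 left out. The biological coefficient of variation was 8.82% for input genes and 30.6% for peaks. The scripts were tested on simulated data. Tables and figures used Python 3.11.15, pandas 2.3.3 and matplotlib 3.10.9.

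Alternatives were RLE and upper-quartile factors, DESeq2 1.42.0, no filter or a stricter one (10 counts in all input libraries), a block for the replicate number, the libraries compared alone, peaks of 1 gene alone and each replicate left out in turn. Named genes are those called with LPS whose replicates did not overlap (the first 12 higher and 10 lower), those called between genotypes or in the difference of the responses, the 3 of each role with the highest input, the 6 highest and 6 lowest ratios after LPS, and the members not tested. Some single genes are not reported here. Further genes were named after their values were seen. Genes of the other lists were named by the same test. The members and lists were chosen with earlier results of these data known. Without unique molecular identifiers, errors cover the spread between samples and of counting only. A genome sequence for the peaks was not used here, so no motif was searched in them.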

Additional observations from a re-analysis of the deposited data

Results flagged for a closer look

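The LPS responses of 3 members differed between WT and Adap-/- PMs by a test of the difference itself (edgeR), out of 64 tested. All 3 were smaller in Adap-/- PMs, where 1.29% of all genes had a smaller response and 0.358% a larger one. The difference, Adap-/- minus WT on the log2 scale, was -1.07 for Il15ra (adjusted p = 0.00451), -0.95 for Ccl5 (adjusted p = 0.0233) and -0.68 for Cxcl16 (adjusted p = 0.0204). Ccl5 differed in mock PMs and lay together after LPS. Il15ra lay close in mock PMs and apart after LPS. The reads of Cxcl16 are shared with Zmynd15. The calls of Ccl5 and Cxcl16 were lost with at least 1 library left out, and that of Il15ra was kept. The causes were not tested.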

How the results depend on the processing

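Of the 53 members called for LPS against mock in WT PMs, 45 stayed called in the same direction under every alternative that gave them a value, and 46 of 53 did in Adap-/- PMs. Between genotypes 7 of 18 did in mock and 13 of 25 in LPS PMs, and for the difference of the responses 1 of 3 did. With upper-quartile factors, Csf2rb in WT PMs turned to -0.03 and Ifnar1 in Adap-/- PMs to -0.00. Where only peaks annotated to 1 gene were summed, 7 members were higher between genotypes in mock PMs in place of 11, because Cxcl16, Ifnar2, the second Il10rb identifier and Il12rb2 have no such peak and gave no value. DESeq2 called 5 members with a smaller response in place of 3, and for the ratio, LPS against mock, 1 peak higher and 23 lower in WT and 12 lower in Adap-/- PMs, in place of 0. For that ratio it called 0.326% of all peaks higher and 2.54% lower in WT PMs. In Adap-/- PMs it called 0.085% higher and 1.57% lower. With a floor of 30 input reads the median ratio of member peaks after LPS was 0.671 in place of 0.746. That of all peaks was 0.872 in place of 0.981. The causes of the other changes were not tested.

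With each replicate left out in turn, the number of members higher with LPS was 36 to 39 in WT and 36 to 38 in Adap-/- PMs, and the number lower 11 to 14 and 11 to 15. Between genotypes 3 to 11 were higher and 4 to 9 lower in mock PMs, and 4 to 8 higher and 11 to 15 lower in LPS PMs. Of all genes 3.32% to 8.79% were higher and 3.07% to 9.5% lower in mock PMs, and 2.6% to 4.7% higher and 4.82% to 7% lower in LPS PMs. For the difference of the responses 1 to 4 were lower, and for the ratio 0 to 4 peaks were lower with LPS in WT PMs. A lone library was assumed to vary like those of the other groups. The counts for LPS against mock, for the difference of the responses and for the ratio are not set against all genes or peaks here. They show only how far the calls depend on single libraries. Calls for the ratio rest on WT mock IP replicate 1, as described above.

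The same replicate number did not mark libraries that deviated together. Replicate differences of IP and input correlated across peaks at -0.11 in WT mock, 0.11 in WT LPS, 0.04 in Adap-/- mock and 0.09 in Adap-/- LPS PMs, and those of input between groups at -0.07 to 0.09. With the number as a replicate block, 11 members were higher and 6 lower between genotypes in mock PMs, 7 higher and 17 lower in LPS PMs, and 3 had a smaller response. Of all genes 8.31% were higher and 8.22% lower in mock PMs, 5.69% and 9.13% in LPS PMs, and 1.35% had a smaller response. A replicate block of each RNA with the numbers as given called 0 member peaks in all 5 comparisons, and 0.0992% of all peaks lower with LPS in WT and 0.085% in Adap-/- PMs. As alternatives chosen after seeing the data, the same block with the WT mock numbers crossed called 4 ratios lower with LPS in WT and 4 in Adap-/- PMs, where it called 0.383% and 0.425% of all peaks. Leaving out the 2 mock IP libraries that hold most LPS-type RNA called 14 lower in WT PMs and 15 lower and 2 higher in Adap-/- PMs.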
